A study of Mus musculus with 76 samples.

Results

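The cytosolic ribosomal protein genes were taken as every row of the count tables whose symbol is Rps or Rpl followed by a number, with an optional paralogue suffix, or is Rplp0, Rplp1, Rplp2 or Rpsa. The expression kept 88 of 48321 gene rows: 36 small-subunit genes, 49 large-subunit genes and the 3 genes of the P-stalk. They lie on 19 chromosomes, 4 of them on the X chromosome (Rpl10, Rpl36a, Rpl39 and Rps4x). The symbol marks 9 of them as a copy of another member (Rpl3l, Rpl6l, Rpl7l1, Rpl10l, Rpl22l1, Rpl39l, Rps4l, Rps12l1 and Rps27l), and 5 members, 3 of these copies among them, are pseudogenes by their GENCODE M21 biotype. The other 77 coding genes are called the core genes below.

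The libraries measured polyadenylated RNA of individual mouse oocytes, 2-cell (2C) embryos and blastocysts and of extraembryonic ectoderm (ExE) at embryonic day 6.5, a placental precursor tissue. Each library is labelled Ezhip matKO, that is, with Ezhip knocked out in the mother, or wild type (WT). The 76 libraries comprised 4 matKO and 3 WT oocytes, 12 matKO (6 female, 6 male) and 11 WT (5 female, 6 male) 2C embryos, 14 matKO (7 female, 7 male) and 14 WT (6 female, 8 male) blastocysts, and 8 matKO (5 female, 3 male) and 10 WT (6 female, 4 male) ExE samples. The strain, the age of the mothers, the deleted part of Ezhip, the driver of any Cre, the litters and the pooling of tissue are not given in the labels, so p-values measure the spread between these libraries, which may be partly technical.

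Libraries held 5273706 to 26484630 counts in oocytes, 1049224 to 14127560 in 2C embryos, 4061206 to 31985958 in blastocysts and 2736211 to 26674539 in ExE. Ezhip, listed as AU022751, had 0.113 to 0.590 CPM (counts scaled to library size) in matKO oocytes, against 943 to 1463 CPM in WT oocytes. It had 0 to 19.1 CPM in matKO and 31.3 to 347 CPM in WT 2C embryos, 0 to 1.64 CPM in matKO and 0 to 41.5 CPM in WT blastocysts, and at most 0.666 CPM in matKO and 1.01 CPM in WT ExE, where its low level checks nothing. Summed oocyte markers were at 13450 to 30240 CPM in oocytes and at most 3931 CPM in any other library, and trophectoderm markers were at 1222 to 7794 CPM in blastocysts and at most 239 CPM in oocytes and 2C embryos. The ExE marker sums of ExE (127 to 1713 CPM) overlapped those of blastocysts (289 to 1543 CPM), and ExE also held 666 to 6776 CPM of visceral endoderm markers. Several sets of libraries stood apart. One was the 7 matKO 2C embryos with identifier numbers 42 to 48, whose 2C markers (Zscan4 and Tcstv genes and others) summed to 1036 to 2405 CPM, against 74.96 to 622 CPM in WT. Another was the blastocysts, whose library identifiers start with D707T (8 matKO, 4 WT) or D405T (6 matKO, 10 WT). The last was ExE, where every matKO identifier starts with D707T and every WT identifier with D1042C, so that genotype and identifier prefix cannot be told apart.

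Ribosomal proteins are the protein part of the small and large ribosomal subunits, and the P-stalk proteins form the flexible arm on which translation factors dock. In mammals most of their mRNAs begin with a C and a run of pyrimidines, the 5′ terminal oligopyrimidine (TOP) motif, through which mTOR signalling and the binding protein Larp1 set their translation. Early mouse embryos inherit ribosomes and mRNA from the oocyte and begin to transcribe their own genome at the 2C stage, and ribosome production rises as the blastocyst forms. Several members have paralogues, among them Rpl39l and Rpl10l, best known in mouse from male germ cells, and Rpl3l, best known from heart and skeletal muscle.

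The region around the annotated start is shown for 14 of the members whose levels are described below, with and without a pyrimidine run, to show the letters a TOP motif would be read from. Promoters of 63 of the 88 members were matched by symbol in the RefSeq promoter table (GRCm38.p6). The windows run from 40 bases before the annotated start to 20 bases after it, on the strand of the gene. A pyrimidine run is defined as a C followed by at least 4 pyrimidines and beginning within 10 bases of the annotated start. Capitals mark only the first such run of a window. Longer runs that also meet the definition stay in lower case in Rps27 (ctcctttcc, across the annotated start) and in Rpl39 (cttcttct, after it).
Rps2 (chr17:24720023-24720082, + strand): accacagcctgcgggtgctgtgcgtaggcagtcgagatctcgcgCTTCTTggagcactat
Rps6 (chr4:86857348-86857407, - strand): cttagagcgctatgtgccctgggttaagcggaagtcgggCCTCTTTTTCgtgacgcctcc
Rpl13a (chr7:45128726-45128785, - strand): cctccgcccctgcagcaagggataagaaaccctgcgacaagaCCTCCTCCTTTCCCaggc
Rpl28 (chr7:4792925-4792984, + strand): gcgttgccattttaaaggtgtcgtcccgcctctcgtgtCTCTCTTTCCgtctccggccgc
Rplp2 (chr7:141447611-141447670, + strand): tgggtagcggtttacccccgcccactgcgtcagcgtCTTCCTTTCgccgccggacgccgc
Rplp0 (chr5:115559427-115559486, + strand): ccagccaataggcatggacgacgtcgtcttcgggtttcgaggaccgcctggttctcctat
Rpl41 (chr10:128549149-128549208, - strand): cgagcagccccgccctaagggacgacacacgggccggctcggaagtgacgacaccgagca
Rps28 (chr17:33824543-33824602, - strand): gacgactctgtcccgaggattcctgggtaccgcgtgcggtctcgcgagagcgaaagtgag
Rps27 (chr3:90213629-90213688, - strand): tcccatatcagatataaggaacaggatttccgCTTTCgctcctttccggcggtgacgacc
Rpl39 (chrX:37085203-37085262, - strand): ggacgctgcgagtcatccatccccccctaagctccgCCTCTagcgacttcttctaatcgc
Rpl39l (chr16:10170188-10170247, + strand): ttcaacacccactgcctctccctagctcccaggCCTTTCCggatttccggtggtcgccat
Rpl10 (chrX:74270776-74270835, + strand): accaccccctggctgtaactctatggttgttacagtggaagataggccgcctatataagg
Rpl10l (chr12:66284382-66284441, - strand): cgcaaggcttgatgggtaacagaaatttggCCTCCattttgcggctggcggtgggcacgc
Rpl3l (chr17:24727786-24727845, + strand): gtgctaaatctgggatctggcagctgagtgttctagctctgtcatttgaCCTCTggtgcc

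A pyrimidine run of this kind was found in 39 of the 63 members (61.9%), against 34.4% of the 27025 genes in the table. In the 300 bases around the start (250 before, 50 after), read on both strands, the ETS core CCGGAAG was in 26 members (41.3%), against 9.93% of all genes. ETS factors, Gabpa among them, are known activators of ribosomal protein promoters in mammals. The YY1 motif AAGATGGC was in 6 members (9.52%), against 3.19% of all genes, and the GC box GGGCGG was in 39 (61.9%), against 38.2% of all genes. The TATA box TATAAA was in 7 members (11.1%), against 15.7% of all genes. Motifs were counted separately, also where they overlap, and a match describes the letters only. Among the 14 windows shown, those of Rpl10, Rplp0, Rpl41 and Rps28 held no pyrimidine run of this kind. The marked runs of Rpl10l, Rps27 and Rpl39l lie wholly before the annotated start, beginning at positions -10, -8 and -7 from it. Those of Rpl13a, Rps2 and Rpl3l begin after it, at positions 2, 4 and 9. At the RefSeq start used here, the marked runs of these paralogues and core genes are thus not the first bases of the mRNA.

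The 88 genes together took a small share of the RNA in oocytes and 2C embryos and a larger one in blastocysts and ExE. The share of all gene counts had a median of 3.44% in oocytes (2.48% to 5.67%, n = 7), 3.34% in 2C embryos (1.18% to 9.72%, n = 23) and 20.7% in ExE (13.8% to 32.6%, n = 18). In blastocysts it was 15.6% to 27.5% in the 12 D707T libraries and 8.85% to 14.9% in the 16 D405T libraries. Every D707T blastocyst and every ExE library was above every oocyte and 2C embryo. The D405T blastocysts overlapped the 2C embryos, whose highest value (9.72%) was above the lowest D405T blastocysts. The 95% Wilson interval of a share was at most 0.101 percentage points wide, covering counting error only, since the libraries carry no molecular identifiers. A share is relative to all other RNA of a sample, and fewer cells of a type and less RNA per cell cannot be told apart.

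**Figure D1:**
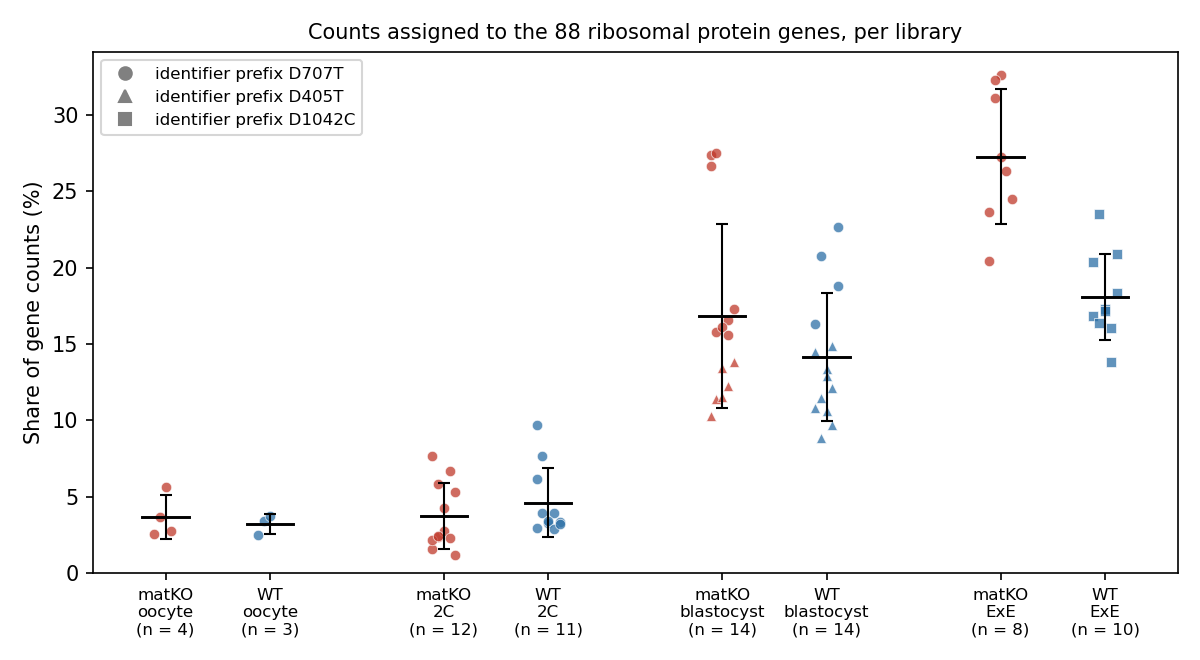
Share of gene counts (%) assigned to the 88 ribosomal protein genes in each library, by stage and genotype; bars are means, whiskers SD, and the symbol gives the identifier prefix. Shares are under 10% in every oocyte and 2C embryo, and the highest values, up to 32.6%, are in matKO ExE.

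Between genes, levels are given as length-scaled TPM, computed from the counts and the exonic length in the tables. The median core gene had a level of 546 TPM in oocytes, 541 TPM in 2C embryos, 2047 TPM in blastocysts and 2339 TPM in ExE. The spread among core genes was wide at each stage, 27.5 to 8195 TPM in oocytes and 286 to 32200 TPM in ExE. Rplp1, a P-stalk protein, was the highest member at every stage, with a median of 8195 TPM in oocytes, 11170 TPM in 2C embryos, 17920 TPM in blastocysts and 32200 TPM in ExE. Rps12, a small-subunit protein, was second in oocytes (5464 TPM), 2C embryos (4162 TPM) and ExE (31530 TPM) and was behind Rpl8 in blastocysts (12670 TPM, against 14890 TPM for Rpl8). Within each stage the ranges of Rplp1 and Rps12 over libraries overlapped, so the order of these 2 is that of the medians only.

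At the low end stood paralogues and pseudogene copies. The lowest tested member was Rpl10l in oocytes (5.27 TPM), Rpl6l in 2C embryos (10.8 TPM), Rps3a3 in blastocysts (8.65 TPM) and Rpl3l in ExE (1.65 TPM). Rps12l1 had 0 counts in all 76 libraries, which allows at most 0.00334 CPM over the summed counts. Exonic lengths in the tables are 0.656 to 9.82 times the median transcript length of GENCODE M21 (median 1.97), which moves ranks: Rps26 was behind Rplp1 and Rps12 in ExE with 13550 TPM and came at rank 17 with the transcript length, and Rps12 came at rank 5 in 2C embryos and rank 4 in blastocysts. The order of the 77 core genes was similar between stages, with a Spearman rho of 0.91 between 2C embryos and blastocysts, 0.86 between oocytes and 2C embryos, and 0.74 between blastocysts and ExE. These values describe genes, which are not independent and share the same lengths at both stages.

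The share of a paralogue in its pair differed between stages. Rpl39l and its X-linked parent Rpl39, both small proteins of the peptide exit tunnel, had medians of 618 TPM for Rpl39l and 586 TPM for Rpl39 in oocytes, or 416 TPM and 755 TPM with the transcript length, so that their order there depends on the length used. Rpl39l was then the higher one, with 626 TPM in 2C embryos and 1113 TPM in blastocysts, against 177 TPM and 295 TPM for Rpl39. In ExE the order was turned round, with 29.3 TPM for Rpl39l and 2339 TPM for Rpl39. The Rpl39l share of the pair thus had a median of 50.2% in oocytes (42.7% to 86.7%), 76.9% in 2C embryos (53.2% to 97.4%), 80.7% in blastocysts (59.1% to 91.3%) and 1.32% in ExE (0.150% to 3.81%). With the transcript length its medians were 34.5% in oocytes, 63.5% in 2C embryos, 68.6% in blastocysts and 0.693% in ExE. With either length all 28 blastocysts were above all 18 ExE libraries. Shares of the other pairs also move with the length, and they are compared below between stages, since a length acts alike at every stage.

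The coding sequences of the pair show how far reads can be told apart. The GENCODE M21 transcripts span chr16:10170226-10174911 (+ strand, GRCm38) for Rpl39l and chrX:37082520-37085402 (- strand) for Rpl39. Their coding sequences, given here with the 23 differing bases in capitals, are identical at 85.3% of their 156 bases. The longest run shared by the transcripts is 38 bases.
Rpl39l: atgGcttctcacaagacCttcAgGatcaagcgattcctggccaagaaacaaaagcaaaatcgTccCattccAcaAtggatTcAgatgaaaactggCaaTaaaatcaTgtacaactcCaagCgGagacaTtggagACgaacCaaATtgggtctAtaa
Rpl39: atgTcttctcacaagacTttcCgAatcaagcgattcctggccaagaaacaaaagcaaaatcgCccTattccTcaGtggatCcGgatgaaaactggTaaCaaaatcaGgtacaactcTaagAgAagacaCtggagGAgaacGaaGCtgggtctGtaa
Coding identity was 84.8% for Rpl10l and Rpl10, 74.3% for Rpl3l and Rpl3, 69.6% for Rpl22l1 and Rpl22, 63.6% for Rps27l and Rps27 and 57.7% for Rpl7l1 and Rpl7, with shared runs of at most 26 bases in those pairs. The sources used here do not say how reads with several matches were counted, so levels of Rps4l, Rps3a2, Rps3a3 and Rpl6l, which are near-copies or pseudogenes, are uncertain.

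Rpl10l, an intronless autosomal copy of the X-linked Rpl10 on chromosome 12, was lowest in oocytes and had its highest median at the 2C stage. Its medians were 5.27 TPM in oocytes (0.592 to 13.9), 370 TPM in 2C embryos (187 to 677), 283 TPM in blastocysts (20.7 to 622) and 18.9 TPM in ExE (4.51 to 51.7). Every 2C embryo was above every oocyte and every ExE library, while blastocysts and 2C embryos overlapped. Rpl10 itself had medians of 807 TPM in oocytes, 897 TPM in 2C embryos, 3422 TPM in blastocysts and 2064 TPM in ExE, so the Rpl10l share of the pair was highest in 2C embryos at 30.8% (11.2% to 60.7%), or 13.6% with the transcript length.

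Rpl3l was highest in 2C embryos. It had 2 counts in 1 of 7 oocytes, 4340 counts over 23 of 23 2C embryos, 98 counts in 12 of 28 blastocysts, and a count in 18 of 18 ExE libraries. Its median was 48.9 TPM in 2C embryos (8.45 to 117), against a median of 1.65 TPM in ExE (0.299 to 9.90), where the ranges just overlap. In 2C embryos it made up 23.7% of the Rpl3l and Rpl3 pair (3.41% to 40.1%), or 11.4% with the transcript length, and its share was at most 0.429% in any library of another stage. The summed counts of 2C embryos and of oocytes, scaled to library size, had a ratio of 1560. Its 95% exact interval of 433 to 12900 reflects the 2 oocyte counts and covers counting error only, not the spread between libraries. The edgeR fit between these stages, described below, gave a log2 fold change of 9.68 ± 0.79 (SE), or 820-fold.

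Among the other pairs, the Rps27l share was 47.4% in oocytes, 77.0% in 2C embryos, 56.8% in blastocysts and 28.3% in ExE. Rps4l, an autosomal copy of the X-linked Rps4x listed as a transcribed pseudogene, made up 10.7% of its pair in oocytes, 43.2% in 2C embryos, 29.8% in blastocysts and 13.6% in ExE. Rpl7l1 was at 5.44% in oocytes, 19.8% in 2C embryos, 4.84% in blastocysts and 5.11% in ExE. Rpl22l1 differed, with its lowest share in 2C embryos (6.65%) and 19.5% in oocytes, 10.3% in blastocysts and 12.2% in ExE. All 3 of Rps27l, Rps4l and Rpl7l1 had their highest share in 2C embryos, with ranges that overlapped between neighbouring stages. For Rpl22l1 the oocytes (12.8% to 26.1%) lay above the 2C embryos (0% to 11.3%). With the transcript length Rps27l was at 67.7% in 2C embryos, 45.1% in blastocysts and 19.8% in ExE, so that it is the lower of its pair in blastocysts, and Rpl22l1 was at 38.7% in oocytes, 15.6% in 2C embryos, 22.96% in blastocysts and 26.5% in ExE.

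**Figure D2:**
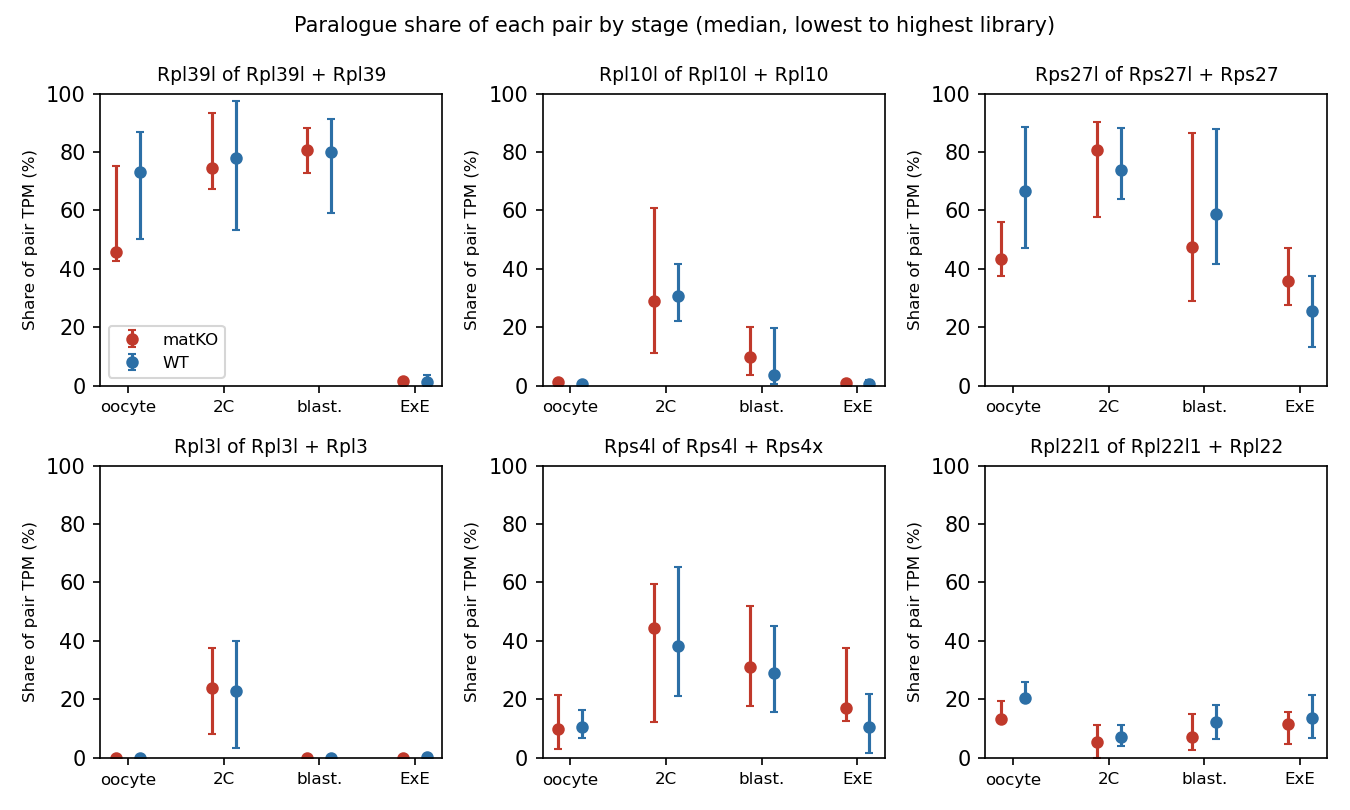
Share of the summed TPM of each pair (%) that belongs to the paralogue, by stage; points are medians of the libraries and whiskers run from the lowest to the highest library, matKO left of WT. With the exonic length of the tables, Rpl39l has its highest medians in 2C embryos and blastocysts and is at most 3.81% in ExE, and Rpl10l and Rpl3l peak in 2C embryos.

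The later stage was then tested against the earlier one at each step with edgeR's quasi-likelihood test on the joined counts, averaging over genotypes, with Benjamini-Hochberg adjustment over all genes tested and a threshold of 0.05. Each stage has its own count table, so stage and table cannot be told apart in these tests. In 2C embryos against oocytes, 16 of 86 tested members were higher and 8 were lower. These shares were below those of all genes (32.1% higher, 32.3% lower). The median log2 fold change of the members was 0.15 and that of all genes -0.05. With library totals in place of TMM scaling the split was 23 higher and 6 lower, and with DESeq2 12 higher and 13 lower. Both splits are given without the shares of all genes. The large-subunit gene Rpl10l rose by 5.68 ± 0.50 (log2 ± SE) and Rpl7l1 by 2.22 ± 0.26. Rps6, the substrate of the S6 kinases, had a median of 506 TPM in 2C embryos and 146 TPM in oocytes (2.15 ± 0.58, edgeR adjusted p = 0.00161). Rpl9 rose by 2.00 ± 0.52, and Rps3a2, a near-copy of Rps3a1, by 2.15 ± 0.57.

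Falls at this step were smaller. Rpl37 had a median of 954 TPM in 2C embryos and 2747 TPM in oocytes (-1.66 ± 0.27, edgeR adjusted p = 2.61e-06). Rpl39 was at 177 TPM in 2C embryos and 586 TPM in oocytes (-1.40 ± 0.40, edgeR adjusted p = 0.00302), a call lost without WT oocyte 2 (-0.55, adjusted p = 0.26). Rpl5, which binds the 5S RNA of the large subunit, was at 202 TPM in 2C embryos and 531 TPM in oocytes (-1.12 ± 0.36), and Rpl22l1 at 15.4 TPM in 2C embryos and 26.9 TPM in oocytes (-1.22 ± 0.53). Rpl6l (-1.43 ± 0.48) and Rpl17 (-0.91 ± 0.32) were also lower. Of the P-stalk genes, Rplp0 rose (0.64 ± 0.27), while the values of Rplp1 (0.62 ± 0.37) and Rplp2 (0.66 ± 0.37) did not pass.

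Blastocysts differed from 2C embryos in nearly every member. Of 87 tested, 85 were higher (35.3% of all genes were) and 1 was lower (45.6% of all genes), with a median log2 fold change of 2.53 for the members and -0.40 for all genes. All 77 core genes were among the 85. Rpl3, which lies close to the peptidyl transferase centre, had the largest rise, with a median of 1972 TPM in blastocysts and 167 TPM in 2C embryos (4.25 ± 0.22, edgeR adjusted p = 7.06e-25). Rpl8 was at 14890 TPM in blastocysts and 2321 TPM in 2C embryos (3.68 ± 0.25). Rps18 rose by 3.50 ± 0.28, Rpl5 by 3.45 ± 0.24, Rpl7 by 3.43 ± 0.23 and Rpl36 by 3.42 ± 0.30. Rpl3l alone fell, by 6.26 ± 0.59 on the log2 scale, while Rpl10l (0.28 ± 0.22) did not pass the test. The median of the members was 1.87 with library totals, where that of all genes was -1.04. Within the D707T libraries the median of the members was 2.88. Counts of calls there were again 85 and 1, given without the shares of all genes.

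Most genes of related lists rose at this step too. All 19 of 19 other TOP-mRNA and translation genes were higher in blastocysts, for example the elongation factor subunits Eef1g (5.69 ± 0.26) and Eef1a1 (4.51 ± 0.14), as were 71 of 76 mitochondrial ribosomal protein genes. Rack1, a scaffold protein on the small subunit, rose by 3.93 ± 0.31 and Fau, which encodes a small-subunit protein fused to a ubiquitin-like protein, by 2.17 ± 0.21. At the earlier step the picture was mixed: 6 of the 19 translation genes were higher and 4 lower in 2C embryos than in oocytes, and 13 mitochondrial ribosomal protein genes were higher and 37 lower. Among the genes that control ribosomal protein synthesis, 10 of 14 were higher in 2C embryos than in oocytes, with the ETS factor Gabpa (6.78 ± 0.31), Yy1 (4.33 ± 0.29) and Larp1 (3.94 ± 0.37) in front, and 1 (Max) was lower.

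In ExE against blastocysts the members went both ways, with 47 of 87 higher (39.7% of all genes) and 13 lower (32% of all genes) and a median log2 fold change of 0.52, against 0.17 for all genes. The split was 48 higher and 2 lower among matKO libraries alone, 32 higher and 23 lower among WT libraries alone, and 30 higher and 5 lower among the D707T libraries, whose ExE samples are all matKO. Shares of all genes are not given for these fits, so the splits do not show whether the members differ from other genes. The main fit had no prefix term. No blastocyst has the prefix of the WT ExE samples (D1042C), so stage and prefix cannot be fully told apart. The median of Rps27 was 4438 TPM in ExE and 607 TPM in blastocysts (2.87 ± 0.26, edgeR adjusted p = 1.17e-13), and that of Rpl39 was 2339 TPM in ExE and 295 TPM in blastocysts (2.93 ± 0.25). Rpl24 rose by 2.30 ± 0.16, Rps28 by 2.28 ± 0.35 and Rps21 by 2.23 ± 0.27. The fitted rise of Rpl3l (2.97 ± 0.69) rests on its 98 counts in blastocysts.

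The deepest falls were in the paralogues. Rpl39l was lower by -5.14 ± 0.36 on the log2 scale (edgeR adjusted p = 2.12e-17), Rpl10l by -3.62 ± 0.27 and Rps4l by -1.31 ± 0.17. Rps6 was at 484 TPM in ExE and 2045 TPM in blastocysts (-1.28 ± 0.25), Rpl29 at 899 TPM in ExE and 3617 TPM in blastocysts (-1.18 ± 0.24) and Rpl15 at 369 TPM in ExE and 972 TPM in blastocysts (-0.84 ± 0.14). Of related genes, 11 of the 19 translation genes were lower and 2 higher in ExE, and 34 mitochondrial ribosomal protein genes were lower and 15 higher.

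In oocytes, no member was called between the genotypes. Levels within a stage are given from here on as CPM with TMM-scaled library sizes. The share of counts was 2.54%, 3.65%, 5.67% and 2.78% in matKO oocytes and 2.48%, 3.44% and 3.71% in WT oocytes, with no separation of the genotypes. The library at 5.67%, matKO oocyte 3, also had the highest sum of cumulus and granulosa markers (3647 CPM, the other oocytes 902 to 2625 CPM) and the lowest sum of oocyte markers (13450 CPM, the other oocytes 22700 to 30240 CPM), and the part of these in its values was not tested. Of the 85 tested members 0 passed edgeR's test (0.0202% of all genes did) and DESeq2 called 0. An unadjusted p under 0.05 was found for 6 members, a count given without the share of all genes. The median log2 fold change was 0.17 for the members and 0.02 for all genes, and 61 of 85 were positive.

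In 3 members every matKO oocyte was above every WT oocyte, a share near the 4.01% of all genes that did so. Rps2, a small-subunit protein, had 418.6 to 825 CPM in matKO oocytes (622 ± 184, SD, n = 4) and 373, 371 and 367 CPM in WT oocytes (0.75 ± 0.24, edgeR adjusted p = 0.76). Rpl38, which mouse mutants tie to the translation of Hox mRNAs, had 30.9, 23.4, 54.1 and 29.6 CPM in matKO oocytes and 8.73, 23.3 and 4.59 CPM in WT oocytes (2.83-fold, with a log2 SE of 0.53, edgeR adjusted p = 0.79). Rpl13a had 22.1, 28.3, 33.3 and 25.1 CPM in matKO oocytes and 15.3, 17.5 and 17.7 CPM in WT oocytes. The WT values of Rps2 had a coefficient of variation of 0.886%, while those of Rpl38 were far apart.

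Other members were spread widely within a genotype. Rps28 had 90.5, 107.9, 236 and 55.8 CPM in matKO oocytes and 15.2, 93.9 and 7.79 CPM in WT oocytes (1.66 ± 0.78, edgeR adjusted p = 0.80). Rpl39 had 320.4, 427, 465.6 and 75.7 CPM in matKO oocytes and 98.3, 712 and 87.5 CPM in WT oocytes. Both genes were high in WT oocyte 2, and lowest among matKO oocytes in number 4. Rpl39l had 168, 197, 201 and 132 CPM in matKO oocytes and 155, 415 and 331 CPM in WT oocytes (-0.79 ± 0.30, edgeR adjusted p = 0.79), with the groups overlapping.

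In 2C embryos no member was called between the genotypes, and the spread within each was wide. The share of counts had a lowest, median and highest value of 1.18%, 2.58% and 7.70% in matKO embryos (3.72% ± 2.17, SD, n = 12) and 2.91%, 3.43% and 9.72% in WT embryos (4.60% ± 2.26, n = 11). The median coefficient of variation of a core gene was 68.8% among matKO and 64.8% among WT embryos, against 36.5% among matKO and 37.8% among WT ExE libraries. With all embryos in the fit and sex as a term, 0 of 86 members were called (0.731% of all genes were), 1 had an unadjusted p under 0.05, and DESeq2 called 1, Rpl7l1, lower. The median log2 fold change was -0.39, against 0.02 for all genes, and 82 of 86 were negative.

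The matKO embryos differed by identifier number, as the plot by identifier shows. The share was 1.18% to 2.74% (2.11% ± 0.540, n = 7) in numbers 42 to 48, 4.30% to 7.70% (5.96% ± 1.30, n = 5) in numbers 37 to 41, and 2.91% to 9.72% in WT embryos. These matKO sets did not overlap. Of the WT embryos, those with numbers 25 to 27 were above 6% and the other 8 were under 4%. The division was made with earlier results of these embryos known, so the values below describe the embryos with and without each set and are no test of genotype. WT embryos 25 to 27 stay in the WT group.

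**Figure D3:**
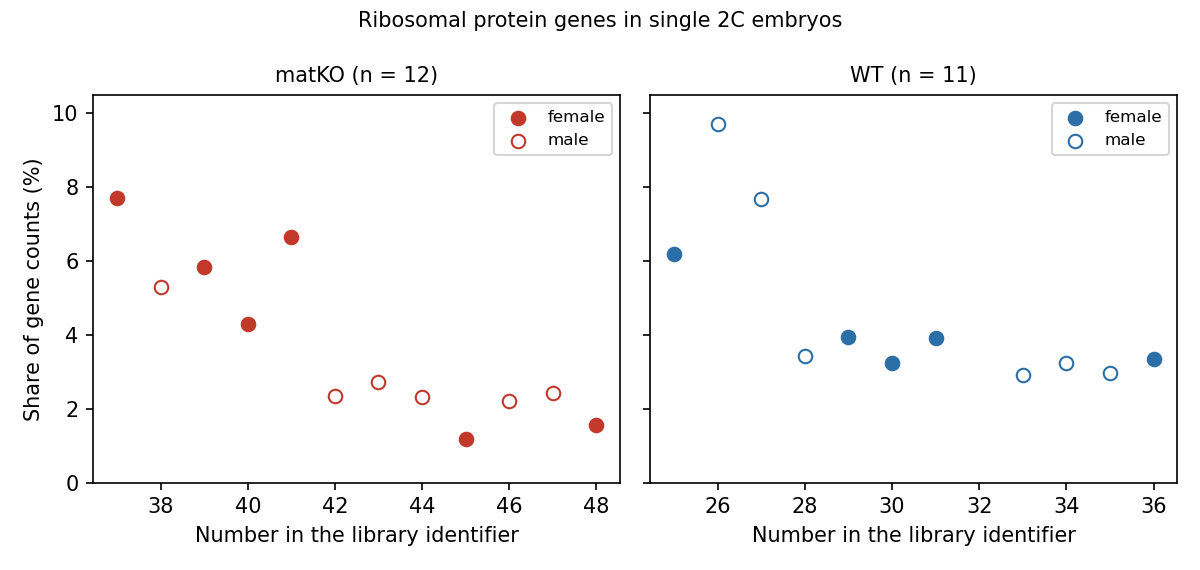
Share of gene counts (%) assigned to the 88 genes in each 2C embryo against the number in its library identifier, matKO on the left and WT on the right; filled points are female and open points male. In matKO embryos the values are 4.30% to 7.70% up to number 41 and 1.18% to 2.74% from number 42.

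With numbers 42 to 48 against WT, 71 of 86 members were past the threshold as lower and 0 as higher (14.7% of all genes were lower), a count set by leaving out embryos of 1 genotype and not of the other, with a median log2 fold change of -1.41, against -0.02 for all genes. Rpl14, a large-subunit protein, had a lowest, median and highest value of 29.8, 116 and 244.5 CPM in those matKO embryos, against 245.2, 402 and 1775 CPM in WT, without overlap (-2.62 ± 0.42). Rps6 had 40.6, 166 and 256 CPM in those matKO embryos and 134, 303 and 2492 CPM in WT (-2.32 ± 0.50). Rps4x, on the X chromosome, had 156, 188 and 205 CPM in those matKO embryos and 232, 809 and 2530 CPM in WT (-2.11 ± 0.39). Rpl22l1 (-2.65 ± 0.70), Rps20 (-2.26 ± 0.47) and Rpl32 (-2.17 ± 0.44) were other members among the most negative.

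The other 15 members did not pass in the same embryos. Rps2 had 343, 530 and 819 CPM in matKO numbers 42 to 48 and 378, 601 and 860.1 CPM in WT (-0.19 ± 0.19), and Rps27l had 202, 389 and 632 CPM there and 237, 322 and 430.2 CPM in WT (0.16 ± 0.20). Rpl13a (-0.18 ± 0.28), Rps28 (-0.36 ± 0.27), Rps29 (-0.40 ± 0.36), Rplp0 (-0.58 ± 0.26) and Rpl10l (-0.60 ± 0.33) were among them.

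With numbers 37 to 41 against WT, 0 of 86 members were called (0.062% of all genes) and 9 had an unadjusted p under 0.05. For those 9 the share of all genes is not given. In the same fit 80 members were positive, with a median of 0.53. Rps6 had 476, 706 and 1242 CPM in these 5 embryos, against 134, 303 and 2492 CPM in WT. Other measures moved with the identifier numbers. Oocyte markers summed to 2782 to 3931 CPM in matKO numbers 42 to 48, 1254 to 2444 CPM in matKO numbers 37 to 41 and 1121 to 2931 CPM in WT, and 2C markers summed to 248 to 437 CPM in matKO numbers 37 to 41. Cumulus and granulosa markers summed to 237 to 288 CPM in matKO numbers 42 to 48, 315 to 412 CPM in matKO numbers 37 to 41 and 296 to 2000.0 CPM in WT, so that numbers 42 to 48 lay below all other 2C embryos. Mitochondrial ribosomal protein genes took 0.211% to 0.425% of counts in matKO numbers 42 to 48, 0.531% to 0.773% in matKO numbers 37 to 41 and 0.474% to 0.850% in WT. The part of these measures in the result was not tested.

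The sexes were unevenly placed, with 4 of 6 matKO females and 1 of 6 matKO males among numbers 37 to 41. Within females edgeR called 0 of 86 members (0.0207% of all genes) and 0 had an unadjusted p under 0.05, with a median log2 fold change of 0.22. Within males 0 were called (0.875% of all genes), with a median of -0.87 and 31 members with an unadjusted p under 0.05. Without matKO 2C male 4, the male among numbers 37 to 41, 11 were lower. That count was set by leaving out a matKO male with a high share while WT males with high shares stayed in. The difference between the sexes, tested as an interaction, called 0 members and had a median of 1.13. In it, 11 members were under an unadjusted p of 0.05. Shares of all genes are not given for the 31, for the 11 lower or for these 11.

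In blastocysts Rpl10l and Rpl13a were higher in matKO, and the summed share of the members overlapped between the genotypes within each identifier prefix. The share was 10.3% to 13.8% (12.1% ± 1.33, n = 6) in matKO and 8.85% to 14.9% (11.9% ± 1.99, n = 10) in WT blastocysts of prefix D405T, and 15.6% to 27.5% (20.4% ± 5.68, n = 8) in matKO and 16.3% to 22.7% (19.6% ± 2.74, n = 4) in WT blastocysts of prefix D707T. Pooled, it had a median of 15.7% in matKO and 13.1% in WT blastocysts (n = 14 each). In the fit with sex and prefix as terms, 2 of 86 members were higher, a share near the 2.75% of all genes, and 0 were lower. The median log2 fold change of the members was 0.15, against -0.03 for all genes. Without the prefix term the median was 0.46 and the calls were again 2.

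Rpl10l differed most. It had 129.7 to 210.3 CPM (median 178, n = 6) in matKO and 8.17 to 67.5 CPM (median 42.6, n = 10) in WT blastocysts of prefix D405T, without overlap. In prefix D707T it had 121 to 290.2 CPM (median 183, n = 8) in matKO blastocysts and 93.3, 219.6, 298.6 and 101.3 CPM in WT blastocysts, where the groups overlapped. The log2 fold change was 1.29 ± 0.26 over all blastocysts (edgeR adjusted p = 0.00276), 2.04 ± 0.27 within D405T (adjusted p = 0.00048) and 0.20 ± 0.34 within D707T (adjusted p = 0.86).

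The difference between the prefixes was tested as an interaction, a comparison chosen after these values were seen. The effect of genotype on Rpl10l was lower in D707T than in D405T by -1.84 ± 0.44 on the log2 scale (edgeR adjusted p = 0.034). It was the only one of 86 members called in that comparison, in which 1.2% of all genes were. In 2C embryos Rpl10l had 58.5 to 298 CPM (median 145, n = 12) in matKO and 63.4 to 311 CPM (median 184, n = 11) in WT embryos, a difference that did not pass (-0.36 ± 0.28). Trophectoderm markers summed to 3316 to 5413 CPM in matKO and 4811 to 7794 CPM in WT blastocysts of prefix D405T, and to 1222 to 2632 CPM in matKO and 2282 to 5041 CPM in WT blastocysts of prefix D707T. Visceral endoderm markers summed to 13.5 to 38.8 CPM in matKO and 5.55 to 127 CPM in WT blastocysts of prefix D405T, and to 116 to 464 CPM in matKO and 40.6 to 86.1 CPM in WT blastocysts of prefix D707T. Their part in the result was not tested.

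Rpl13a, which is also known from interferon-controlled translation, had 202 ± 40.8 CPM in matKO and 143 ± 27.1 CPM in WT blastocysts (SD, n = 14 each), a log2 fold change of 0.40 ± 0.10 (edgeR adjusted p = 0.018). It was 0.37 (adjusted p = 0.060) within D405T and 0.40 (adjusted p = 0.39) within D707T, and the call was lost with library totals (adjusted p = 0.064). Rpl39l had 456 ± 139.5 CPM in matKO and 272 ± 93.5 CPM in WT blastocysts of prefix D405T, and 745 ± 435.5 CPM in matKO and 603 ± 223 CPM in WT blastocysts of prefix D707T; its log2 fold change of 0.56 ± 0.22 did not pass (edgeR adjusted p = 0.14). The X-linked members were at log2 fold changes of -0.03 to 0.08, none called. Within females edgeR called 0 of 86 (0.208% of all genes) and within males 0 (1.52% of all genes), with 2 members under an unadjusted p of 0.05 in each sex. The interaction of the sexes called 0 and had 0 under an unadjusted p of 0.05. For the unadjusted counts the share of all genes is not given.

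**Figure D4:**
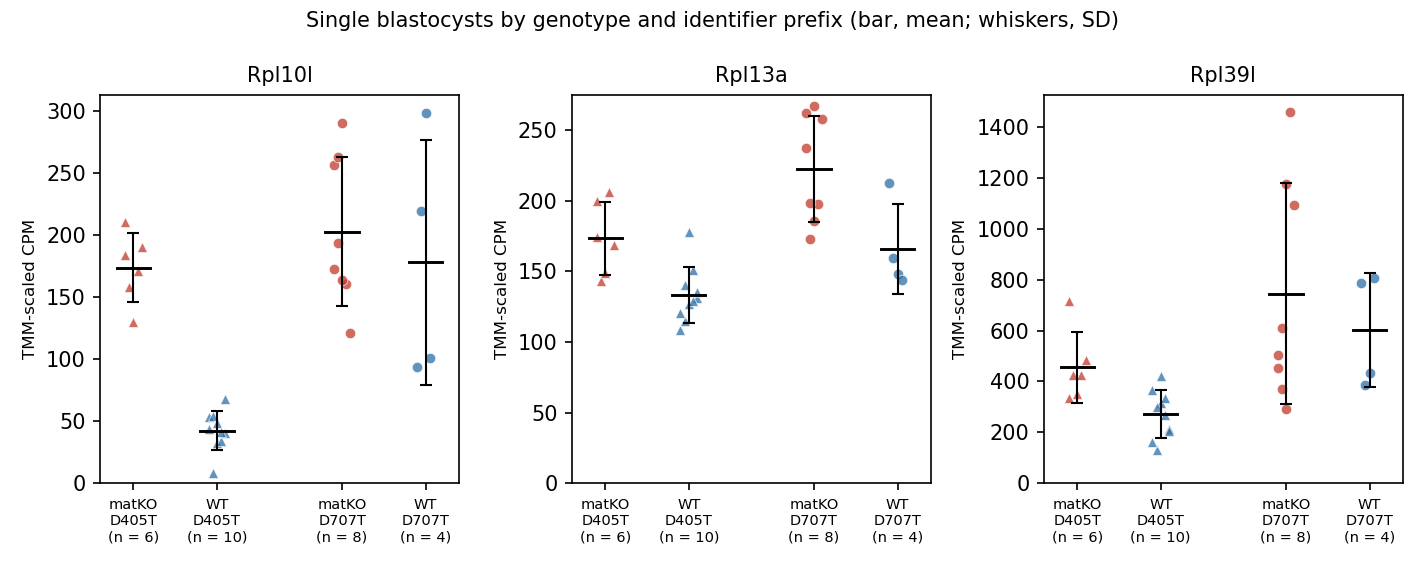
TMM-scaled CPM of Rpl10l, Rpl13a and Rpl39l in single blastocysts by genotype and identifier prefix, matKO left of WT in each prefix; bars are means and whiskers SD. For Rpl10l the D405T groups do not overlap (129.7 to 210.3 CPM in matKO, 8.17 to 67.5 CPM in WT), and the D707T groups do.

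The identifier prefix itself went with nearly the whole family. In D707T against D405T blastocysts 77 of 86 members were higher and 0 lower (16.8% of all genes were higher), with a median log2 fold change of 1.00, against -0.10 for all genes. Rpl7a had a lowest, median and highest value of 2357, 3424 and 4164 CPM in D707T and 677.5, 1086 and 1390.0 CPM in D405T blastocysts. Rps28 had 201, 420 and 1356 CPM in D707T and 11.9, 84.2 and 330.0 CPM in D405T blastocysts (2.06 ± 0.41, edgeR adjusted p = 0.000194), and Rps12 had 3696, 5271 and 11650 CPM in D707T and 1092, 1788 and 2799 CPM in D405T blastocysts (1.76 ± 0.19). Rpl7a and Rps12 did not overlap between the prefixes, while Rps28 did. Rpl36 (1.79 ± 0.27), Rps29 (1.76 ± 0.44), Rpl41 (1.75 ± 0.24) and Rpl13 (1.57 ± 0.18) were the next.

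Members that did not pass included Rpl22l1 (-0.47 ± 0.22), Rps27l (-0.33 ± 0.22), Rpl7l1 (-0.32 ± 0.14), Rpl15 (-0.09 ± 0.14) and Rpl4 (0.12 ± 0.13). With an offset for GC content, again 77 were higher, a count given without the share of all genes. Of 76 mitochondrial ribosomal protein genes, 39 were higher and 4 lower in D707T. Trophectoderm markers summed to 1222 to 5041 CPM in D707T and 3316 to 7794 CPM in D405T blastocysts, and visceral endoderm markers to 40.6 to 464 CPM in D707T and 5.55 to 127 CPM in D405T blastocysts. Genes with a count numbered 11580 to 15050 in D707T and 13480 to 16540 in D405T blastocysts. Their part in the difference was not tested, and the labels do not say what the prefixes stand for.

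In ExE most members were higher in matKO, among them all P-stalk genes, Rpsa and the paralogues Rpl10l and Rps4l. The share of counts was 20.4% to 32.6% (27.3% ± 4.42, n = 8) in matKO ExE and 13.8% to 23.5% (18.1% ± 2.80, n = 10) in WT ExE. Of 87 tested members, 54 were higher in matKO ExE and 0 lower (14.1% of all genes were higher), and the median log2 fold change was 0.96, against -0.07 for all genes. With library totals in place of TMM scaling the median of all genes moved to -0.40 and that of the members to 0.59. In that fit 43 members were higher and 4 lower, for which the shares of all genes are not given. As stated above, each genotype had its own identifier prefix in ExE, so a difference that goes with the prefix, as was seen in blastocysts, cannot be told apart from one that goes with genotype.

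In 12 members every matKO ExE library was above every WT ExE library, against 1.85% of all genes. Rpl36, a large-subunit protein, had a lowest, median and highest value of 1027, 1762 and 2646 CPM in matKO and 73.8, 141 and 557 CPM in WT ExE (3.04 ± 0.35, edgeR adjusted p = 2.76e-06). Rpl14 had 2321, 3810.0 and 5803 CPM in matKO and 259, 734 and 1874 CPM in WT ExE (2.34 ± 0.30). Neither gene overlapped between the groups.

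Rpl29, Rpl28 and Rps16 rose too, with 7 of 8 matKO libraries above every WT library for each. Rpl29 had 389, 1450.0 and 3053 CPM in matKO and 60.6, 196 and 790.4 CPM in WT ExE (2.68 ± 0.46, edgeR adjusted p = 0.000326). Rpl28 had 599, 1369 and 2705 CPM in matKO and 126, 194 and 643 CPM in WT ExE (2.50 ± 0.35). Rps16 had 1091, 3996 and 7081 CPM in matKO and 449.9, 645 and 1591 CPM in WT ExE (2.41 ± 0.32).

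All 3 P-stalk genes rose. Rplp1 had 10740, 24080 and 29670 CPM in matKO and 1975, 3751 and 11520 CPM in WT ExE (2.34 ± 0.31, edgeR adjusted p = 1.7e-05), with 7 of 8 matKO libraries above every WT library. Rplp0 had 6872, 9154 and 17790 CPM in matKO and 1403, 2642 and 5437 CPM in WT ExE (2.02 ± 0.26), and Rplp2 had 5900, 10890 and 12580 CPM in matKO and 1164, 1945 and 3992 CPM in WT ExE (2.24 ± 0.25). For both of these the groups did not overlap. By role, 22 of 35 small-subunit, 29 of 49 large-subunit and 3 of 3 P-stalk genes were higher.

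Rpsa, known also as the laminin receptor, had 4162, 6069 and 14590 CPM in matKO and 1181, 1698 and 3020 CPM in WT ExE (2.02 ± 0.27). Of the paralogues, 2 were called. Rpl10l had 12.1, 19.1 and 32.2 CPM in matKO and 2.67, 4.32 and 8.39 CPM in WT ExE (2.02 ± 0.29, edgeR adjusted p = 3.81e-05), and Rps4l had 469, 811 and 1158 CPM in matKO and 89.7, 189 and 304 CPM in WT ExE (2.07 ± 0.24). Both were without overlap. Rpl39l (0.39 ± 0.51), Rps27l (0.03 ± 0.18), Rpl7l1 (0.13 ± 0.20), Rpl6l (0.39 ± 0.23) and Rpl3l (-0.93 ± 0.69) did not pass.

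Of the 4 X-linked members Rpl10 alone was called, with 1288, 5059 and 9460 CPM in matKO and 702, 1751 and 2930 CPM in WT ExE (1.49 ± 0.31). Rps4x (0.49 ± 0.41), Rpl36a (0.08 ± 0.26) and Rpl39 (0.02 ± 0.19) were not. A minority of members had lower means in matKO ExE, none past the threshold: Rps27 with 2049 ± 738 CPM in matKO and 3181 ± 915 CPM in WT ExE (-0.63 ± 0.25, edgeR adjusted p = 0.062), Rpl22l1 (-0.61 ± 0.25), Rps15a (-0.53 ± 0.30) and Rpl24 (-0.37 ± 0.27). With library totals, Rps27, Rpl22l1, Rps15a and Rpl22 were the 4 lower calls. Rps27a, made as a fusion with ubiquitin, had 1776, 4966 and 6913 CPM in matKO and 2737, 4464 and 11140 CPM in WT ExE and was not called.

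The fold change in ExE went with the GC content of the transcripts, in members as in other genes. Spearman's rho was 0.58 over 87 members and 0.45 over 13759 genes, as a description across genes measured in the same libraries. Under 48% GC, 2 of 16 members were higher, with a median of 0.29, against -0.43 for the other genes of that range. From 48% to 52% it was 17 of 30 (0.86, against -0.14), from 52% to 56% it was 23 of 28 (1.03, against 0.18), and from 56% it was 12 of 13 (1.72, against 0.62). With a GC offset per library, an alternative added after seeing the data, 55 members were higher and their median was 0.91. The share and median of all genes are not given for that fit.

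**Figure D5:**
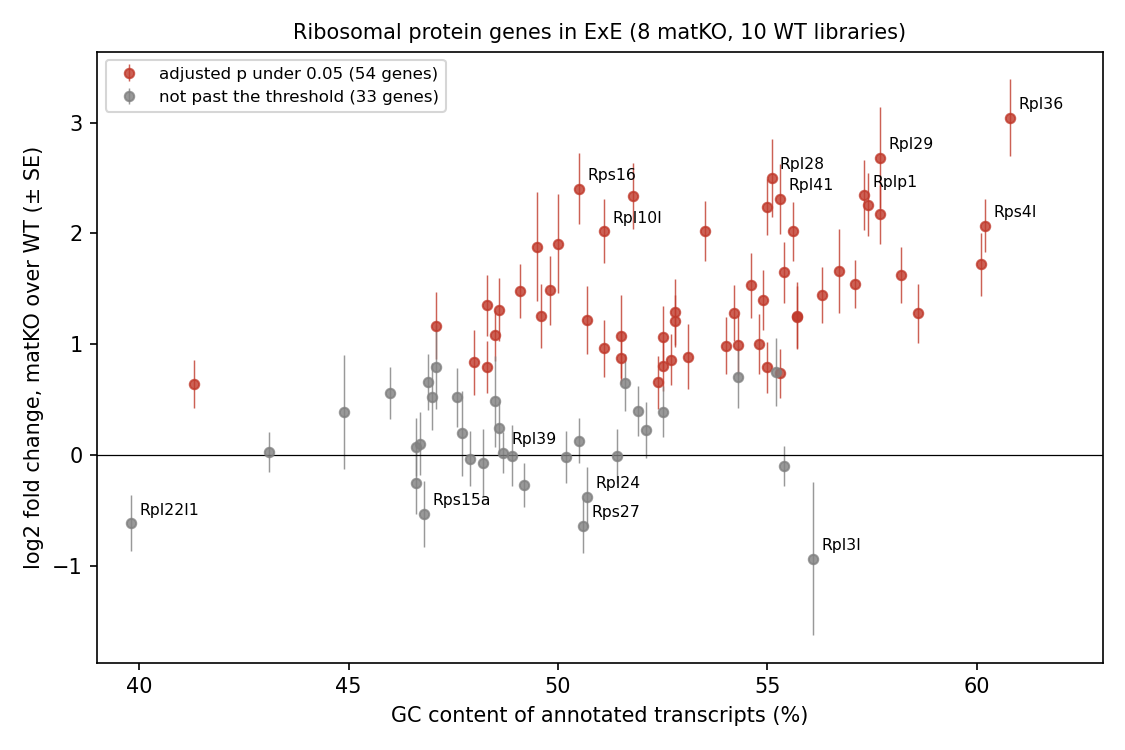
Log2 fold change of each of 87 members in matKO over WT ExE (± SE) against the GC content of its annotated transcripts (%); red points passed the adjusted p threshold of 0.05. Of 16 members under 48% GC 2 passed, and of 13 members from 56% GC 12 did.

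Summed markers of the tissue itself and of 2 other sources overlapped between the ExE groups, with higher medians in matKO. Decidua and uterine stroma markers had a lowest, median and highest sum of 44.4, 368 and 940 CPM in matKO and 47.9, 75.9 and 390.2 CPM in WT ExE, erythroid markers of 1.70, 78.3 and 354 CPM in matKO and 0.217, 3.31 and 45.2 CPM in WT ExE, and ExE markers of 127, 852 and 1713 CPM in matKO and 473, 763 and 1396 CPM in WT ExE. All 15 stroma, all 8 erythroid and all 8 ExE markers had a count in some ExE library. Without the 4 matKO libraries whose stroma sum was above every WT library, 43 members were higher and their median was 1.01. That fit, too, is given without the share and median of all genes. Counts on 274 ribosomal protein pseudogene rows per 100 counts on the members were 3.39 ± 1.37 in matKO and 6.21 ± 1.90 in WT ExE (SD), while they were 1.37 to 2.44 in every library of the other stages. The part of these differences in the result was not tested.

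Within females 31 of 87 members were higher in matKO ExE (6.48% of all genes), and within males 28 (4.23%). The counts rested on few libraries: they were 19 to 42 in females when 1 library was left out, lowest without matKO female 3 (19) or female 2 (20), and 10 to 38 in males, lowest without matKO male 2 (10) or WT male 1 (11), 2 (11) or 3 (12). The difference between the sexes called 0 members, none had an unadjusted p under 0.05, and its median was -0.27.

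Genes outside the family but tied to it went both ways in ExE, where 14.1% of all genes were higher in matKO. Fau (2.51 ± 0.32) and Rack1 (0.80 ± 0.22), described above, were higher in matKO ExE. Of 19 other TOP-mRNA and translation genes 6 were higher and 1 lower, among them Eef1a1 (2.46 ± 0.45), Eef1g (1.81 ± 0.32) and Tpt1 (1.58 ± 0.35). Of 76 mitochondrial ribosomal protein genes 22 were higher and 5 lower, while their summed share of counts was 0.840% ± 0.165 in matKO and 0.921% ± 0.0803 in WT ExE. Among 14 genes that control ribosomal protein synthesis the translation repressors Eif4ebp1 (0.76 ± 0.23) and Eif4ebp2 (1.04 ± 0.28) were higher, a share near that of all genes. The transcription factor Sp1 (-0.75 ± 0.19) was lower, and of 6 chaperones of ribosomal proteins Heatr3 (-1.58 ± 0.31) and Grwd1 (-0.69 ± 0.25) were lower. In blastocysts, Mycn (-2.17 ± 0.42) and Mtor (-0.46 ± 0.14) were lower in matKO, and none of the 19 translation genes was called. The share of all genes that were lower is not given for ExE or blastocysts, so these lower calls have no background.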

How the data were processed

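The authors deposited raw counts per gene, 1 table per stage. Per the submitters' processing notes, featureCounts, STAR, SAMtools and Trim Galore were used with the build mm10. The sources used here give no versions, annotation release, strand setting or handling of reads with several matches. Libraries were made with a Swift Biosciences Accel-NGS kit, per the labels' protocols. A further 8 columns matching no sample were not used.

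The members and gene lists were chosen with earlier results of these data known. Counts were tested with edgeR 4.0.16 in R 4.3.3 (quasi-likelihood F test, robust dispersions, TMM scaling, minimum count of 10 in filterByExpr, Benjamini-Hochberg adjustment over all genes of a fit, threshold 0.05). Sex was a term in 2C embryos and ExE, and sex and identifier prefix in blastocysts. Standard errors are the log2 fold change divided by the square root of F. Counts of members under an unadjusted p are given throughout without the share of all genes. Stage steps used joined tables with 1 mean per stage and genotype and no prefix term, so stage cannot be told apart from table. Fits were tested on simulated data. Alternatives were DESeq2 1.42.0, library totals, no filter, a GC offset (lowess span 0.3), a replicate block and leaving out each library. No 2 libraries of a group agreed within sampling noise (lowest chi-square per degree of freedom 10.1 over 183 pairs).

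Genes named are paralogues with parents, X-linked and P-stalk members, Rps27a, the 3 highest and 3 lowest by TPM per stage, and up to 6 called members with the largest rise and fall per comparison at a mean of at least 5 CPM. Members outside that rule (Rps2, Rpl38, Rpl13a and Rps28 in oocytes, Rpl7a, Rpsa and members that did not pass) were chosen after their values were seen. Coding sequences and GC content came from GENCODE M21, promoters from RefSeq (GRCm38.p6).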

Additional observations from a re-analysis of the deposited data

Results flagged for a closer look

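Of 45 groups of values examined, 9 held a library far from the rest of its group by Dixon's criterion, where chance gives about 1 in 20. For the share of counts on the 88 genes these were WT 2C female 1 (6.18%, the others 3.25% to 3.95%), matKO 2C male 4 (5.29%, the others 2.20% to 2.74%) and matKO blastocyst male 4 (26.7%, the others 12.2% to 16.1%). WT blastocyst female 5 was high in Rpl10l (93.3 CPM, the others 32.3 to 54.3 CPM) and in Rpl39l (785 CPM, the others 130 to 368 CPM), and WT blastocyst male 6 in Rpl39l (806 CPM, the others 162 to 434 CPM). These WT blastocysts have the prefix D707T. WT ExE female 2 was high in Rpl36 (557 CPM, the others 73.8 to 324 CPM), Rpl29 (790.4 CPM, the others 60.6 to 383 CPM) and Rplp1 (11520 CPM, the others 1975 to 5831 CPM).

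The effect of genotype on Rpl10l differed between the identifier prefixes of the blastocysts, in a comparison chosen after the values were seen. The difference was -1.84 on the log2 scale (D707T minus D405T, edgeR adjusted p = 0.034). Levels in matKO were above WT without overlap in D405T only.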

How the results depend on the processing

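Over all settings, the number of members called stayed within 1.5 times in 356 cases and moved further in 19, and 507 values of named genes stayed past the threshold while 28 did not. In 2C embryos against oocytes, 12 members were called with matKO libraries only and 19 to 25 when 1 oocyte was left out. In ExE against blastocysts, 35 were called with D707T libraries only. In 2C embryos, matKO against WT, DESeq2 called 1 and the embryos with identifier numbers 42 to 48 alone gave 71. In blastocysts, library totals gave 1 call, D405T alone 1 and D707T alone 0; leaving out 1 library gave 2 to 2. In female blastocysts the edgeR fit without legacy settings called 1, and leaving out 1 library gave 0 to 1. Leaving out 1 library gave 0 to 11 calls in male 2C embryos, 50 to 56 in ExE, 19 to 42 in female ExE and 10 to 38 in male ExE; the other counts stayed at 0 to 0. The cause was not tested where none is named. Counts of this section are given without the shares of all genes. The deviations of same-numbered libraries had a correlation over 0.1 in 2 of 3 oocyte, 3 of 11 2C, 9 of 13 blastocyst and 1 of 8 ExE pairs. Its median was 0.105 in oocytes, 0.009 in 2C embryos, 0.134 in blastocysts and -0.052 in ExE. A weak pairing in oocytes and blastocysts is therefore not excluded. With the replicate number as a block, 0 members were called in oocytes, 0 in 2C embryos, 1 in blastocysts (Rpl13a was lost, adjusted p = 0.092) and 54 in ExE. The D707T-only setting was not run for 2C embryos over oocytes, all of which have that prefix.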
